A study of Mus musculus with 23 samples.

Results

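Acetylcholine synthesis, its packing into vesicles and the recovery of choline depend on 3 proteins that mark a cholinergic neuron, and its slow actions in the brain run through 5 muscarinic receptors. The set described here held 9 genes: Chat, Slc5a7, Slc18a3, Ache and Chrm1 to Chrm5. Members were all rows of the deposited log2 table whose identifier carried one of these symbols in the gene name column of the scanner files. Of the 9 genes, 8 had a row, and Chrm1 had 2, so that 9 of the 31395 rows in the table were members. The 9 genes had 12 probes on the array. The 1 Chrm5 probe was well above background on 0 of 23 arrays, with a log2 signal of 3.36 to 4.93, and its identifier had no row in the filtered table.

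Expression was measured on 23 one-color arrays in female C57BL/6 mice, 5 weeks old at the start of the experiments (the diets followed after habituation to the cages), with no genetic change in any group. SC mice received standard chow (mice L52, L54, L56 and L58), and CM mice chose freely between chow and a chocolate mixture (mice O52, O54, O56 and O58). After 8 weeks of diet and an 11-day test battery, the frontal cortex (FC), the striatum (ST) and a region named hypothalamus in the protocol (HT) were taken from the same mice. The sample labels call the HT tissue thalamic region. In the battery SC mice were also given the mixture during limited access, and mice were offered it with quinine, so SC mice were not naive to chocolate. Each group had 4 arrays apart from CM FC with 3, as an FC array of O52 was not used here.

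Choline acetyltransferase (Chat) makes acetylcholine, Slc18a3 (the vesicular acetylcholine transporter) loads it into vesicles, and Slc5a7 (the high-affinity choline transporter) takes choline back into the terminal. Acetylcholinesterase (Ache) breaks acetylcholine down in the synapse. Chrm1, Chrm3 and Chrm5 signal through Gq and phospholipase C, whereas Chrm2 and Chrm4 signal through Gi/o, lowering cyclic AMP and, for Chrm2 in many neurons, limiting acetylcholine release as an autoreceptor. In the striatum acetylcholine comes mainly from sparse local interneurons, in the cortex mainly from axons whose cell bodies lie in the basal forebrain. In bulk tissue, fewer cells of a type and less RNA per cell cannot be told apart.

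The promoters of the 3 cholinergic marker genes are shown first because their signals moved together over the arrays. They are 250-base windows upstream of each gene start in RefSeq (GRCm38.p6), written 5′ to 3′ on the gene's strand. The Slc5a7 window overlaps the first few bases of its gene, whose span reaches 54299038. Capitals mark the cyclic AMP element core (TGACG, or CGTCA on the other strand) and the E-box (CACGTG, its own reverse complement), which were searched on both strands together with TAATTA.
Chat, chr14:32465910-32466159, minus strand: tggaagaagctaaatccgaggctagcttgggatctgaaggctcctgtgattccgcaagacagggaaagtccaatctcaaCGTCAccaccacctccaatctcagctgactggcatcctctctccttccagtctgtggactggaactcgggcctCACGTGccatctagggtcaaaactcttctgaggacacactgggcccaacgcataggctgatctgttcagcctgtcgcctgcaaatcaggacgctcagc
Slc18a3, chr14:32464851-32465100, minus strand: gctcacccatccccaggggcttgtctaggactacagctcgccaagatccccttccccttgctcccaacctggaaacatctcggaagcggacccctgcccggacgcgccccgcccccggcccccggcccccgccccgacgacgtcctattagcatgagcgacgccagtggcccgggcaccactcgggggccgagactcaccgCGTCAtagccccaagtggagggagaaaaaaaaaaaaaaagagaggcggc
Slc5a7, chr17:54299035-54299284, minus strand: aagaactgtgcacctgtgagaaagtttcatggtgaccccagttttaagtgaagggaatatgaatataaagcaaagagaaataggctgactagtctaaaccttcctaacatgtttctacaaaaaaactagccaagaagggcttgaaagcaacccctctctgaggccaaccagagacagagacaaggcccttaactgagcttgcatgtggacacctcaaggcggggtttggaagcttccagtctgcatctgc
Slc18a3 lies inside the Chat gene on the same strand, with its start 1059 bases from that of Chat, the arrangement known as the cholinergic gene locus. The Chat window held CGTCA 171 bases and CACGTG 98 bases before the start, and the Slc18a3 window held CGTCA 49 bases before it. The Slc5a7 window had 0 matches to any of the 3 motifs. Of 32851 windows of the same length, 17.8% held the cyclic AMP element core, 6.02% the E-box and 4.84% TAATTA. Of the other members with a window (8 of 9 genes, Chrm1 had none), Ache held 1 E-box and Chrm5 1 TAATTA, and Chrm2, Chrm3 and Chrm4 held 0 matches. These matches describe letters only.

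Probes were 60 bases long (mm9). Those of Chrm2, Chrm4 and Chrm5 and 1 of the 2 Ache probes are shown to make clear which stretch was measured. The Ache row averages 2 probes whose starts lie 2391 bases apart, and the second is not shown.
Ache (first probe), chr5:137733122-137733181, plus strand: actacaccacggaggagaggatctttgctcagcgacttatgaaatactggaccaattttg
Chrm2, chr6:36474550-36474609, plus strand: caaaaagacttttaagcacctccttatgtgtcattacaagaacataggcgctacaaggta
Chrm4, chr2:91768397-91768456, plus strand: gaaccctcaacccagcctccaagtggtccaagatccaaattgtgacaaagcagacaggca
Chrm5, chr2:112319331-112319390, minus strand: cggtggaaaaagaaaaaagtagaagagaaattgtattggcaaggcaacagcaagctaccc
The longest run of bases shared by any 2 of the 6 muscarinic probes was 7, over 15 pairs. Chrm1 was read at 2 places on chromosome 19, 2669 bases apart, under the identifiers NM_001112697 and NM_007698. Both probes are annotated to both transcripts, so their rows do not tell isoforms apart. The NM_007698 probe was well above background on 15 arrays and on 0 of the HT arrays, which leaves only a bound for HT. One of the 2 Slc5a7 probes was above background on 19 arrays, and the Chat probe ended in 23 bases of a GAAA repeat. Log2 values are set against each other within a row and not between rows, since probes differ in brightness.

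Spots well above background made up 61.4% to 71.3% of each array. The arrays lay on 3 slides. Each CM group filled places on a single slide (slide 3 for FC, slide 1 for ST, slide 2 for HT). Every region difference within CM mice thus ran between slides. SC groups were spread over slides, but unevenly. SC FC had 3 arrays on slide 1 and 1 on slide 2, and SC HT had 1 on slide 2 and 3 on slide 3. SC HT and SC FC thus met only on slide 2. The mean log2 signal of 9 striatum markers was 13.36 to 14.26 on ST arrays and 9.75 to 11.25 on HT arrays. On FC arrays it was 9.7, 11.33, 11.84 and 11.72 in L52, L54, L56 and L58, and 9.67, 9.98 and 11.76 in O54, O56 and O58. HT arrays held hypothalamus markers (9.56 to 13.15, against 7.12 to 8.34 on FC arrays) and also thalamus markers (10.01 to 11.66, against 7.47 to 7.79), and the title, source and tissue labels of every HT array call the tissue thalamic, whereas the treatment protocol calls it hypothalamus. In SC mice 5 of 10 hypothalamus and 8 of 8 thalamus markers were called higher in HT than in FC. Among ST arrays, L52 stood apart in hypothalamus markers (11.27), L54 in cortex markers (10.36) and O58 in choroid plexus markers (13.09). Calls lost without these 3 arrays are given with that value where the gene is described.

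**Figure D1:**
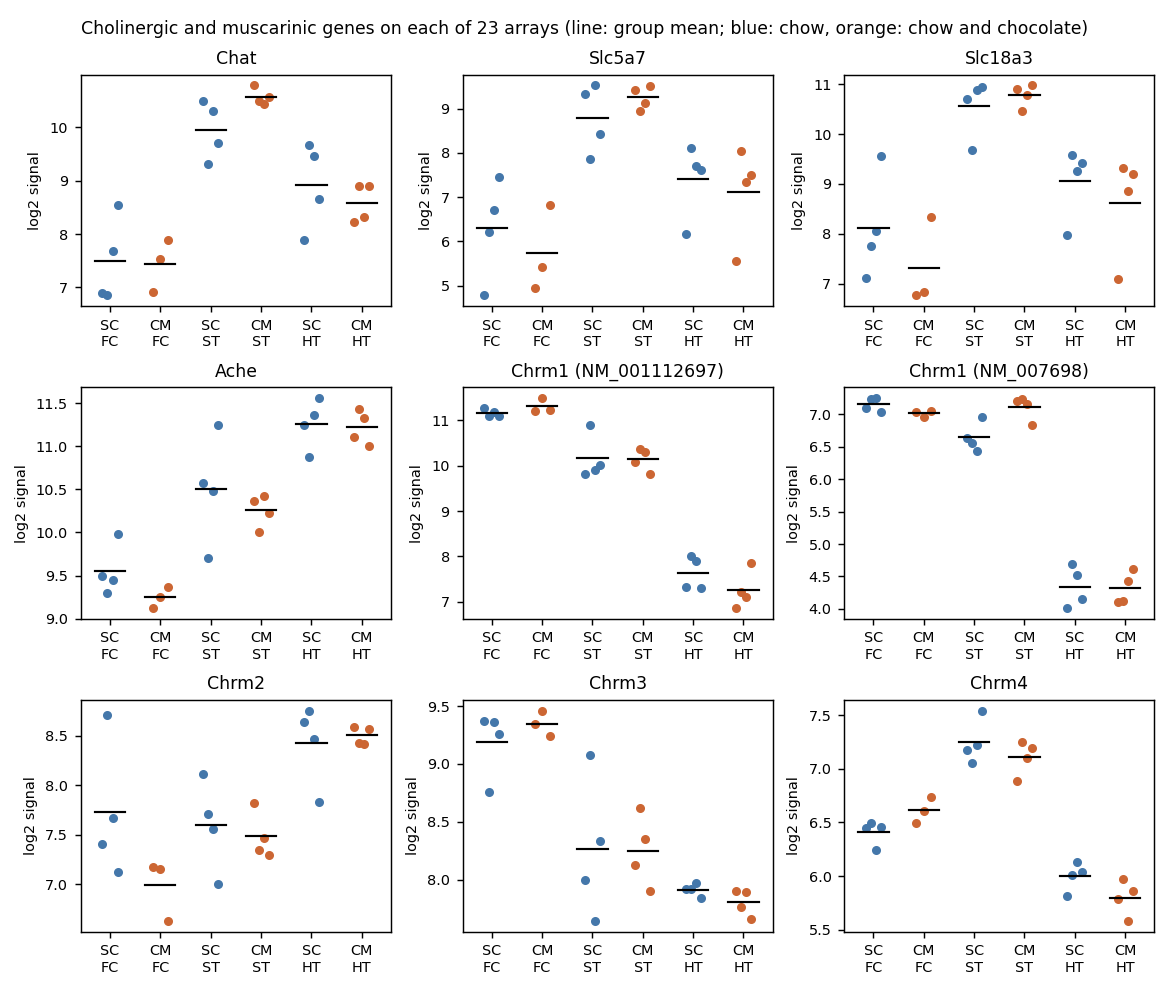
Log2 signal (y axis) of the 9 rows of the member genes on each of 23 arrays, by region and diet (x axis); points are arrays, lines group means, blue chow and orange chow plus chocolate mixture. Chat, Slc5a7 and Slc18a3 are highest in the striatum, Ache in the HT arrays and both Chrm1 rows lowest there.

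The first question was how the levels of these genes differ between the 3 regions. In SC mice, Chat was higher in ST than in FC, Ache and Chat were higher in HT than in FC, and Chrm1 was far lower in HT than in both other regions. Chrm4 was lower in HT than in ST, and Chrm3 was highest in FC. A row was called when limma gave an adjusted p value below 0.01 and a change above 2-fold. In fits that left out 1 array, the SC Chat calls held in 20 of 23 (ST against FC) and 11 of 23 (HT against FC). The Chrm3 call between ST and FC of SC mice held in 11 of 23. Between ST and FC 2 of 9 member rows were called against 2.09% of all rows, between HT and FC 5 of 9 against 8.38%, and between HT and ST 3 of 9 against 4.77%. In CM mice the counts were 6 of 9 against 9.45%, 8 of 9 against 9.35% and 6 of 9 against 8.74%. The median size of the member differences in SC mice was 0.987, 1.28 and 1.18 on the log2 scale in the same order, against 0.223, 0.315 and 0.22 over all rows. The 3 comparisons within a diet share arrays.

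Chat, the enzyme of acetylcholine synthesis, had log2 signals of 6.9, 6.85, 7.68 and 8.55 in SC FC (L52, L54, L56 and L58) and of 6.91, 7.54 and 7.89 in CM FC (O54, O56 and O58). In ST it was 10.5, 9.32, 10.3 and 9.71 in SC mice and 10.79, 10.5, 10.43 and 10.56 in CM mice (O52 to O58). All ST arrays lay above all FC arrays. In HT it was 7.89, 9.66, 9.46 and 8.66 in SC mice, which overlapped both other regions, and 8.22, 8.9, 8.31 and 8.9 in CM mice, which lay between them. Group means ± SD were 7.5 ± 0.8 (SC FC, n = 4), 9.96 ± 0.54 (SC ST, n = 4) and 8.92 ± 0.81 (SC HT, n = 4). Chat was thus 5.14-fold higher in ST than in FC of SC mice (log2 difference 2.36, SE 0.48, limma adjusted p = 0.00389), and 8.81-fold higher in CM mice (3.14, SE 0.3, adjusted p = 5.62e-08). Within the same mouse, ST exceeded FC in 7 of 7 mice by 1.16 to 3.6. The SC difference was 2.86 (adjusted p = 0.00167) with slide as a fixed block and 2.81 and 2.91 within slides 1 and 2. It was not called without SC ST L56 (1.84, adjusted p = 0.0441), SC ST L52 (2.1, 0.0126) or SC FC L56 (2.19, 0.016), nor without the 3 striatal arrays that stood apart (2.32, SE 0.71, 0.0473). With mouse as a fixed block it was 2.21 (SE 0.51, limma adjusted p = 0.0127), also not called. The CM difference was 2.6 (SE 0.8, limma adjusted p = 0.0865) with slide as a block and was then not called.

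Between HT and FC, Chat differed by 1.43 in SC mice (SE 0.41, limma adjusted p = 0.0086) and by 1.16 in CM mice (SE 0.28, adjusted p = 0.0014), and HT exceeded FC in 7 of 7 mice. The SC call held in 11 of the 23 fits that left out 1 array (0.98, adjusted p = 0.102, without SC HT L56) and was lost without the 3 striatal arrays (1.43, adjusted p = 0.0119). The CM call was lost without CM FC O54 (0.88, adjusted p = 0.0187), and with slide as a block neither diet gave a call (2, adjusted p = 0.0852, and 1.35, adjusted p = 0.214). HT minus ST was -0.93 in SC mice (adjusted p = 0.147, not called) and -1.98 in CM mice (SE 0.29, adjusted p = 9.22e-06), or -1.25 (adjusted p = 0.147) with slide as a block. The mean of HT thus lay between those of FC and ST in both diets. Of the motor neuron markers, 2 of 3 (Prph and Calca) were called higher in HT than in FC of SC mice. The other, Mnx1, was not called, and was well above background on 0 of 4 SC HT and 1 of 4 CM HT arrays. The mean of the 3 markers was 7.64 to 8.2 on HT arrays and 5.68 to 6.21 on FC arrays, and their part in the Chat level was not tested.

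Slc5a7, which supplies choline to the terminal, spread widely in FC. Its log2 signals were 4.78, 6.21, 6.72 and 7.46 in SC FC and 4.94, 5.43 and 6.82 in CM FC. In ST they were 9.33, 7.85, 9.53 and 8.42 in SC mice and 9.42, 8.94, 9.13 and 9.51 in CM mice. Again every ST array lay above every FC array. In HT they were 6.16, 8.12, 7.71 and 7.62 in SC mice and 5.55, 8.05, 7.33 and 7.49 in CM mice, with the lowest values in L52 and O52. The FC arrays with striatum markers of 11.33 to 11.84 had Slc5a7 at 6.21 to 7.46, and those with markers of 9.67 to 9.98 had it at 4.78 to 5.43. In SC mice 3 of the 9 markers were called higher in ST than in FC. The part of those markers in the spread was not tested.

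The ST to FC difference of Slc5a7 was 2.37 in SC mice (SE 0.8, limma adjusted p = 0.0495, not called) and 3.56 in CM mice (SE 0.49, adjusted p = 3.94e-06, 11.8-fold). ST was higher in 7 of 7 mice, by 0.96 to 4.55. Without SC ST L54, the array with high cortex markers, the SC difference was 2.85 (adjusted p = 0.00747) and was called, and without all 3 striatal arrays it was 2.35 (0.221). With slide as a block the CM difference was 2.18 (SE 1.32, limma adjusted p = 0.422), and within slides 1 and 2 the SC difference was 2.53 and 3.91. HT differed from FC by 0.91 in SC mice (adjusted p = 0.292) and by 1.6 in CM mice (adjusted p = 0.00532, or 0.446 with slide as a block). HT differed from ST by -1.46 (adjusted p = 0.167) and by -1.96 (adjusted p = 0.00166, or 0.686 with the block).

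Slc18a3, which fills the vesicles, followed Slc5a7 closely. Its log2 signals were 7.11, 7.76, 8.05 and 9.56 in SC FC and 6.77, 6.84 and 8.34 in CM FC. In ST they were 10.71, 9.69, 10.89 and 10.94 in SC mice and 10.9, 10.46, 10.78 and 10.98 in CM mice. In HT they were 7.97, 9.59, 9.27 and 9.42 in SC mice and 7.1, 9.32, 8.85 and 9.2 in CM mice. ST lay above FC and HT without overlap in both diets, and FC and HT overlapped. The ST to FC difference was 2.25 in SC mice (SE 0.73, limma adjusted p = 0.0428, not called) and 3.53 in CM mice (SE 0.45, adjusted p = 1.63e-06, 11.6-fold), and ST was higher in 7 of 7 mice. Without SC ST L54 the SC value was 2.57 (adjusted p = 0.0088) and was called (2.56, 0.142, without all 3 striatal arrays), and with slide as a block the CM value was 2.99 (SE 1.21, limma adjusted p = 0.193) and was not. HT differed from ST by -1.44 in SC mice (adjusted p = 0.137) and by -2.02 in CM mice (adjusted p = 0.000609, or 0.344 with the block), and was lower in 8 of 8 mice. HT differed from FC by 0.82 (adjusted p = 0.306) and 1.51 (adjusted p = 0.00441, or 0.316 with the block). The HT to FC calls of Slc5a7 and Slc18a3 in CM mice held in 19 of 23 fits that left out 1 array, and were lost without O54 or O56 of either region.

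**Figure D2:**
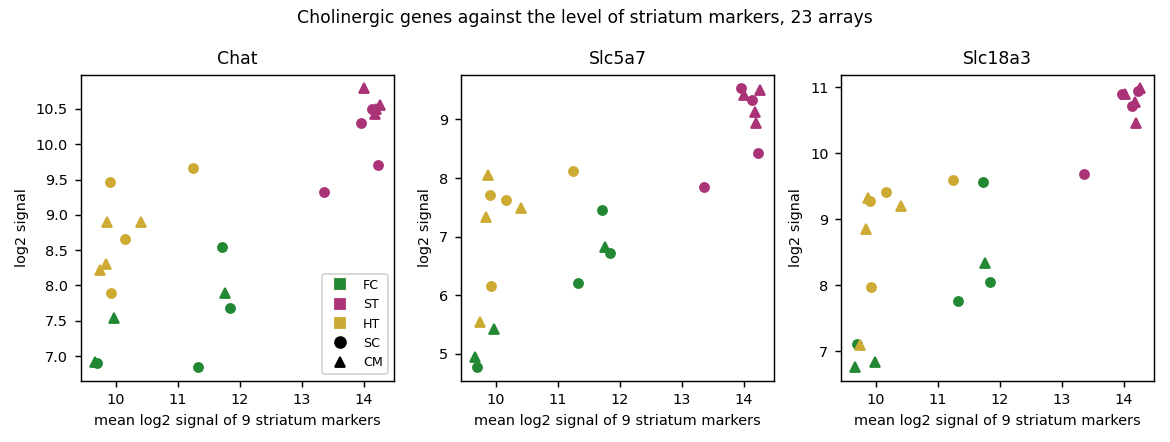
Log2 signal (y axis) of Chat, Slc5a7 and Slc18a3 against the mean log2 signal of 9 striatum markers (x axis) on 23 arrays; colors are regions, circles chow and triangles chow plus chocolate mixture. ST arrays sit at the upper right, and FC arrays with markers of 9.67 to 9.98 are the lowest FC arrays for Slc5a7 and Slc18a3. For Chat the lowest FC array is SC L54 (6.85), with markers of 11.33.

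Ache, which ends the signal by splitting acetylcholine, had another order, with HT highest. Its log2 signals in FC were 9.49, 9.3, 9.45 and 9.98 in SC mice and 9.12, 9.25 and 9.37 in CM mice. In ST they were 10.57, 9.7, 10.48 and 11.25 in SC mice and 10.37, 10, 10.42 and 10.23 in CM mice. In HT they were 11.25, 10.87, 11.36 and 11.56 in SC mice and 11.11, 11.43, 11.33 and 11 in CM mice. The 3 regions did not overlap in CM mice, while SC ST overlapped both neighbors. HT was above FC by 1.68 in SC mice (SE 0.21, limma adjusted p = 5.1e-06, 3.19-fold) and by 2.02 in CM mice (SE 0.14, adjusted p = 4.05e-10, 4.05-fold), in 7 of 7 mice. With slide as a block these were 1.54 (adjusted p = 0.0102, not called) and 2.31 (adjusted p = 0.00023, called). ST was above FC by 0.8 in SC mice (adjusted p = 0.0357) and by 1.03 in CM mice (adjusted p = 9.99e-06, or 0.119 with the block). HT was above ST by 0.87 (adjusted p = 0.00827) and 0.98 (adjusted p = 1.43e-05), both under 2-fold, in 8 of 8 mice, and the CM difference was 1.13 (0.00951, called) with the block. Within slides, that SC difference was 1.46 on slide 2 and -0.1 on slide 3.

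Among the Gq-coupled receptors, Chrm1 had the steepest gradient of the members, with FC high, ST below it and HT lowest. The NM_001112697 row read 11.26, 11.1, 11.18 and 11.1 in SC FC, 9.82, 10.9, 9.91 and 10.02 in SC ST, and 7.33, 8.01, 7.9 and 7.3 in SC HT. In CM mice it read 11.21, 11.49 and 11.23 in FC, 10.09, 10.37, 10.31 and 9.82 in ST, and 6.86, 7.22, 7.1 and 7.86 in HT. The regions did not overlap in either diet, and the highest ST array, SC L54 (10.9), was the one with high cortex markers. HT was far below FC in SC mice (log2 difference -3.42, SE 0.25, limma adjusted p = 1.03e-08) and 17.1-fold below in CM mice (-4.1, SE 0.17, adjusted p = 3.15e-13). HT was 5.41-fold below ST in SC mice (-2.44, SE 0.27, adjusted p = 1.84e-06) and 7.67-fold below in CM mice (-2.94, SE 0.18, adjusted p = 5.22e-11). These calls held in all 23 fits that left out 1 array and with slide as a block (-3.76, -3.92, -2.57 and -3.2), and HT was lowest in every mouse. Between HT and FC cortex markers moved with this row, with 5 of 7 called lower in HT of SC mice. They were at 8.44 to 9.19 on HT arrays and 10.52 to 11.22 on FC arrays. Between HT and ST they did not follow it, with 0 of 7 called in SC mice (median log2 difference 0.55). In CM mice 2 were called higher in HT than in ST and 4 lower. The part of these markers in the Chrm1 row was not tested.

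In the same row ST minus FC was -0.99 in SC mice (adjusted p = 0.0305, not called) and -1.16 in CM mice (SE 0.18, limma adjusted p = 1.92e-05). The SC difference was -1.24 (adjusted p = 0.00138) without SC ST L54 and -1.18 (0.0622) without all 3 striatal arrays, and the CM difference was -0.73 (adjusted p = 0.502) with slide as a block. The Chrm1 row NM_007698 read 7.1, 7.24, 7.25 and 7.04 in SC FC and 6.63, 6.56, 6.44 and 6.96 in SC ST. In CM mice it read 7.03, 6.96 and 7.05 in FC and 7.2, 7.23, 7.15 and 6.84 in ST, so that CM ST overlapped CM FC. In HT its signal of 4.01 to 4.69 was not well above background. By plain group means it was at least 6.68-fold lower in HT than in FC of SC mice (limma adjusted p = 1.09e-09) and at least 6.46-fold lower in CM mice (2.65e-13). Against ST the bounds by plain means were 4.7-fold in SC and 6.9-fold in CM mice (limma adjusted p = 6.12e-08 and 3.45e-13). Each bound compares the bright group's mean with the lowest signal well above background on each dim array, or the probe's own signal where higher. The bounds carry no array weights and no sampling error, whereas the p values come from the weighted fit. In SC mice that fit gave 4.41-fold between HT and ST, which is below the bound by plain means. Its ST to FC difference was -0.62 in SC mice (adjusted p = 0.0354) and 0.13 in CM mice (0.353).

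Chrm3, the other Gq-coupled receptor with a row, was highest in FC and lower in both other regions. It read 9.37, 8.76, 9.36 and 9.26 in SC FC and 9.35, 9.46 and 9.24 in CM FC. In ST it read 8, 9.08, 7.64 and 8.33 in SC mice and 8.13, 8.62, 8.35 and 7.9 in CM mice. In HT it read 7.92, 7.92, 7.97 and 7.84 in SC mice and 7.9, 7.76, 7.89 and 7.66 in CM mice. HT lay below FC without overlap (-1.28, SE 0.22, limma adjusted p = 9.93e-05 in SC mice and -1.56, SE 0.14, 1.69e-08 in CM mice), called in all 23 fits that left out 1 array. With slide as a block both HT to FC differences missed the threshold (-1.56, adjusted p = 0.0139, and -1.45, adjusted p = 0.0107). ST was below FC by a called difference in both diets (-1.08, adjusted p = 0.00788, and -1.09, adjusted p = 5.96e-06), but the SC call rested on few arrays. It held in 11 of 23 fits that left out 1 array, and the difference was -0.35 (limma adjusted p = 0.366) without SC ST L56, which read lowest. With mouse as a fixed block it was -1.1 (adjusted p = 0.0132, not called). The SC ST L54 array overlapped FC. Without the 3 striatal arrays that stood apart the difference was -1.22 (adjusted p = 0.00661), and with slide as a block -1.17 (0.00822) in SC and -0.79 (0.363) in CM mice. HT and ST did not differ by a called amount (-0.19, adjusted p = 0.616, and -0.47, adjusted p = 0.0129).

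Of the Gi/o-coupled receptors, Chrm4 was highest in ST, where it sits on projection neurons and cholinergic interneurons. It read 6.45, 6.49, 6.24 and 6.46 in SC FC, 7.17, 7.05, 7.22 and 7.54 in SC ST, and 5.81, 6.01, 6.13 and 6.04 in SC HT. In CM mice it read 6.49, 6.61 and 6.74 in FC, 6.89, 7.25, 7.1 and 7.19 in ST, and 5.79, 5.97, 5.58 and 5.86 in HT. The regions did not overlap in either diet. HT was 2.26-fold below ST in SC mice (-1.18, SE 0.14, limma adjusted p = 5.73e-06) and 2.45-fold below in CM mice (-1.29, SE 0.1, 8.43e-10), in 8 of 8 mice, in all 23 fits that left out 1 array and with slide as a block (-1.34 and -1.37). ST exceeded FC by 0.82 (adjusted p = 0.00276) and 0.48 (0.000292), and HT minus FC was -0.35 in SC mice (adjusted p = 0.0399) and -0.81 in CM mice (2.24e-07). These were under 2-fold and not called. Striatum markers moved with Chrm4, with 9 of 9 called lower in HT than in ST in SC mice, and their part was not tested.

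Chrm2, known as a presynaptic autoreceptor, was highest in HT. It read 7.41, 8.71, 7.67 and 7.13 in SC FC, 8.11, 7.71, 7.56 and 7 in SC ST, and 8.64, 8.75, 8.47 and 7.83 in SC HT. In CM mice it read 7.18, 7.16 and 6.63 in FC, 7.82, 7.35, 7.47 and 7.3 in ST, and 8.59, 8.43, 8.42 and 8.57 in HT. The SC groups overlapped, with FC L54 near the top of the HT values, and the CM groups did not. HT was 2.76-fold above FC in CM mice (1.46, SE 0.18, limma adjusted p = 8.01e-07), or 1.54 (0.0132, not called) with slide as a block. In SC mice HT was above FC by 0.76 (adjusted p = 0.0273, not called), or by 1.02 (0.00257, called) without SC FC L54. HT was above ST by 0.85 and 0.96 (0.0387 and 0.000224), both under 2-fold, in 8 of 8 mice, and the CM difference was 1.47 (0.00447, called) with the block. ST and FC differed by -0.09 in SC mice (adjusted p = 0.893) and by 0.5 in CM mice (0.0299).

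**Figure D3:**
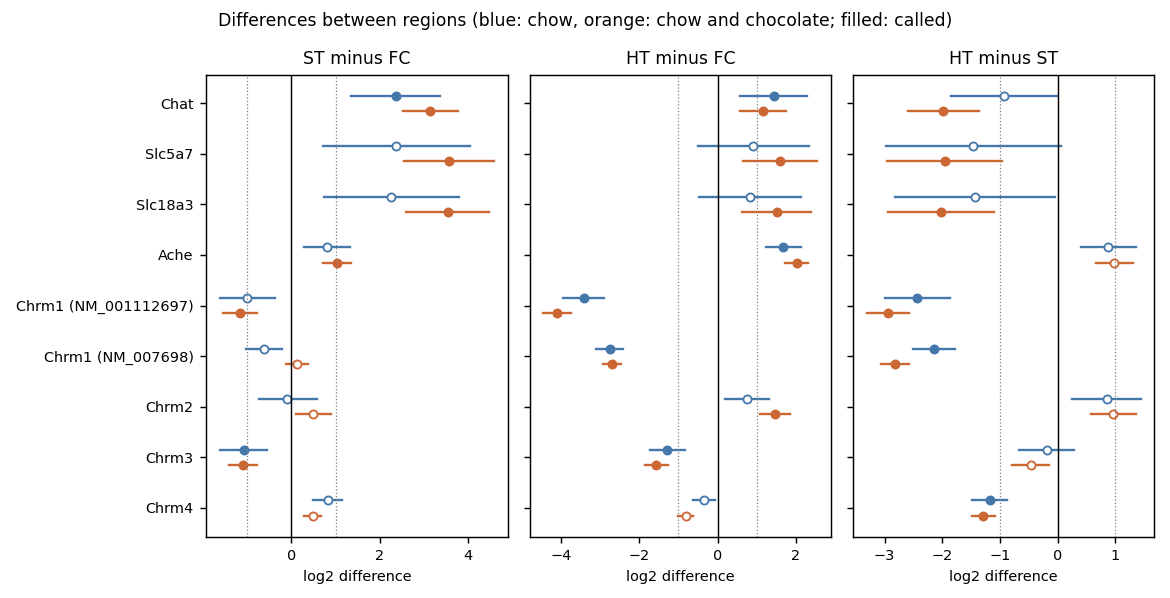
Log2 differences between regions (x axis) with 95% intervals for the 9 rows (y axis), in 3 panels (ST minus FC, HT minus FC, HT minus ST); blue chow, orange chow plus chocolate mixture, filled points called, dotted lines at 2-fold. Chrm1 lies farthest left in both HT panels (-3.42 and -4.1 against FC), and the cholinergic marker genes lie to the right in ST minus FC.

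Over the 23 arrays the 3 marker genes moved together. Pearson's r was 0.978 for Slc5a7 and Slc18a3, 0.946 for Chat and Slc5a7 and 0.932 for Chat and Slc18a3. With each group's mean taken out, r was 0.931, 0.83 and 0.785 over the same 23 arrays. The arrays share 8 mice, 3 regions and 3 slides, so these values are a description. Ache correlated with Chat at 0.397 and with the Chrm1 row NM_001112697 at -0.904, while the 2 Chrm1 rows correlated at 0.957, or 0.526 with the group means taken out. Among the rows most like each member, by r over the 23 arrays, were BB086117 (0.988) beside Slc18a3 for Slc5a7, and BB086117 (0.99) beside Slc5a7 for Slc18a3. For Chat they were Slc5a7, Unc13c (0.941) and Gm2990 (0.938). For Ache they were Nrsn2 (0.975), Phf1 (0.974) and Tmem91 (0.972). For Chrm1 they were Bcl11a (0.989), Ephx4 (0.987) and Dab1 (0.986) by the first row, and Zfp831 (0.991), Cecr6 (0.987) and Cacng3 (0.984) by the second. For Chrm2 they were Vash2 (0.936), Slc6a11 (0.901) and Zfp385c (0.9), for Chrm3 Kcnh7 (0.977), Rnf39 (0.972) and Wnt10a (0.972), and for Chrm4 Lingo3 (0.963) and Hpca (0.958).

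Other genes of the pathway were taken from 4 lists. Of 8 genes of cholinergic neuron identity, Isl1, a homeodomain factor of striatal interneurons, was the 1 called higher in ST than in FC of SC mice (2.39, SE 0.51, limma adjusted p = 0.00508). Without the 3 striatal arrays that stood apart it was 2.46 (SE 0.74, adjusted p = 0.0428) and was not called. The median of the list was 1.92 there, against -0.00249 over all rows. In CM mice 7 of 8 were called higher, among them Lhx8 (4.76), Isl1 (3.56) and Ngfr (2.87). With slide as a block 0 of 8 were called in CM mice and 5 of 8 in SC mice, among them Gbx1, Isl1, Nkx2-1 and Gbx2. In HT against FC of SC mice 4 of 8 were called higher, led by Gbx2 (5.07), a factor of thalamic development, with Zic4 (2.42), Nkx2-1 (2.32) and Isl1 (2.1). Some of these genes were above background on few FC arrays, as with Gbx2 and Gbx1 on 1 of 4 SC FC arrays each.

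Of 16 nicotinic receptor subunits, which form the fast acetylcholine receptors, 14 had a row. Between ST and FC 0 of 14 were called in either diet. In HT of SC mice, Chrna6 was above FC by 4.59 (SE 0.65, limma adjusted p = 1.74e-05), Chrna4 by 2.74 (SE 0.25, 8.82e-08) and Chrnb2 by 1.17 (SE 0.09, 1.81e-08). With slide as a block Chrna6 (5.14, adjusted p = 0.00863) and Chrna4 (2.76, 0.000565) were called and Chrnb2 (0.68, 0.00235) was under 2-fold. Against ST, Chrna6 (4.45) and Chrna4 (2.13) were higher in HT and Chrna7 was lower (-1.31, adjusted p = 2.07e-06). Chrna6 is known from midbrain dopamine neurons and the habenula. Habenula markers, 2 of 4 called higher in HT than in FC, were at 7.25 to 9.54 on HT arrays and 5.81 to 6.52 on FC arrays, and their part was not tested.

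Of 10 genes of acetylcholine breakdown and choline supply, Prima1, which anchors Ache to the membrane of neurons, was the 1 called higher in ST than in FC of SC mice (1.91, SE 0.34, limma adjusted p = 0.00199), and in CM mice it was higher by 2.92, or by 2.53 (adjusted p = 0.0307, not called) with slide as a block. Without the 3 striatal arrays that stood apart, the SC difference was 2.04 (adjusted p = 0.0163, not called). HT against FC gave 0 higher and 1 lower in SC mice (Slc44a4, close to background). Of 20 genes of muscarinic signaling, Rgs9 (1.82 in 1 of 2 rows) and Adcy5 (1.74), a regulator of G-protein signaling and an adenylyl cyclase of striatal neurons, were higher in ST than in FC of SC mice, and the potassium channels Kcnj3 (-1.22) and Kcnj6 (-1.03) were lower. Without the 3 striatal arrays Rgs9 (1.77, limma adjusted p = 0.0248) and Adcy5 (1.78, 0.0309) were not called, while Kcnj3 (-1.47) and Kcnj6 (-1.03) were. In HT against FC, Plcb4 was higher in 2 of 3 rows (1.38 and 1.79), while Plcb1 (-1.44 to -1.91) and Kcnq5 (-1.92 and -2.15) were lower. Plcb1 and Plcb4 encode phospholipases that act downstream of Gq, and Kcnq5 an M-current channel closed by muscarinic signals. Against ST, Plcb4 was higher in HT in all 3 rows (1.13 to 1.78), and Rgs9, Adcy5, Plcb1, Rgs4 and Kcnq5 were lower.

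The second question was whether the chocolate mixture changed any of these genes. For diet 0 of 9 member rows were called in any region, against 2.94% of all rows in FC, 0.602% in ST and 0.178% in HT, where the HT threshold was 1.5-fold and a limma adjusted p value below 0.05. At an unadjusted p value below 0.05 there were 1, 1 and 2 member rows, against 40%, 25.5% and 13.2% of all rows. The members had a median difference of 0.224 in size for FC, 0.152 for ST and 0.235 for HT, against 0.225, 0.183 and 0.101 over all rows. SC and CM arrays overlapped for all 9 rows in all 3 regions. How many of all rows overlap in this way was not counted, so whether the overlap is particular to the members is not known. FC had no slide with both diets.

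The intervals were wide for the cholinergic marker genes. Slc18a3 differed by -1.08 in FC (95% interval -2.26 to 0.1, limma adjusted p = 0.163), by 0.2 in ST (-1.1 to 1.5) and by -0.38 in HT (-1.37 to 0.6). Slc5a7 differed by -0.93 in FC (-2.21 to 0.36, adjusted p = 0.274), 0.26 in ST (-1.15 to 1.68) and -0.24 in HT (-1.32 to 0.84). Its FC value turned to 0.44 with slide as a block. Chat differed by -0.22 in FC (-1 to 0.56), 0.55 in ST (-0.31 to 1.42) and -0.5 in HT (-1.15 to 0.16). Changes of 2-fold in either direction thus lay inside the intervals of Slc5a7 and Slc18a3 in ST, and a 2-fold fall inside their intervals in FC and HT. For Chat a 2-fold rise lay inside the interval in ST and a 2-fold fall inside that in HT, and its FC interval reached -1. Ache was measured more tightly, with -0.33 in FC (-0.74 to 0.07), -0.1 in ST (-0.55 to 0.34) and 0.01 in HT (-0.33 to 0.35), all inside 2-fold.

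Of the receptors, Chrm2 had the lowest adjusted p value in FC (log2 difference -0.69, 95% interval -1.19 to -0.18, adjusted p = 0.0395), under 2-fold and not called, and -0.36 (adjusted p = 0.951) with slide as a block. In HT the Chrm1 row NM_001112697 differed by -0.49 (-0.89 to -0.09, limma adjusted p = 0.261) and Chrm4 by -0.23 (-0.45 to -0.02, 0.322). On slide 2, where 4 CM HT arrays stand beside SC HT L58, these were -0.04 and -0.24. In ST the Chrm1 row NM_007698 differed by 0.58 (SE 0.16, 0.24 to 0.92, adjusted p = 0.0303), under 2-fold and not called, while the other Chrm1 row differed by 0.01 (-0.51 to 0.54). These intervals overlap, and the difference between the 2 rows was not tested. Chrm3 differed by 0.16, 0.15 and -0.12 in FC, ST and HT, and all its intervals lay within 2-fold.

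Of the 4 pathway lists, with 14, 8, 13 and 32 rows, 1 gene was called for diet, by 1 row in FC. There 2.94% of all rows were called, so this count is no more than that share would give. Prima1 was lower in CM FC than in SC FC (-1.12, SE 0.27, limma adjusted p = 0.00406), although the groups overlapped (7.05 to 8.28 and 7.45 to 9.09). With slide as a block its difference was -0.76 (SE 0.57, adjusted p = 0.878). In ST and HT it differed by -0.1 and -0.24. Mean striatum markers of the FC arrays lay at 9.67 to 11.76 in CM and 9.7 to 11.84 in SC mice, with 2 of 3 CM arrays and 1 of 4 SC arrays below 10. Of the 9 markers 0 were called for diet in FC, and their part in the Prima1 value was not tested.

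**Figure D4:**
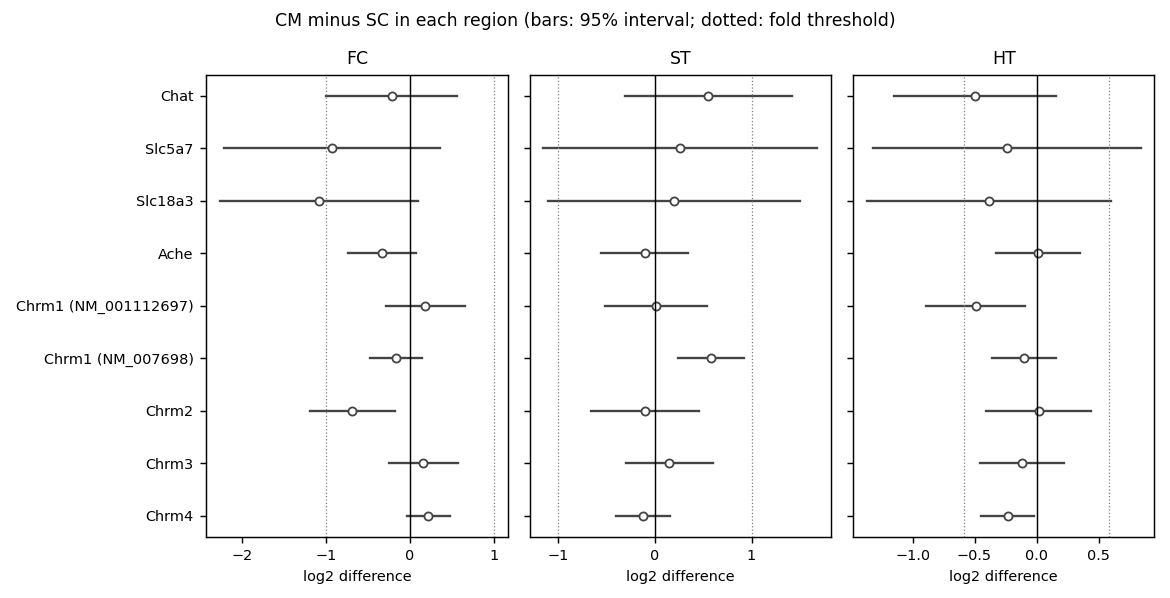
Log2 differences between CM and SC mice (x axis) with 95% intervals for the 9 rows (y axis) in FC, ST and HT; dotted lines mark the fold threshold (2-fold in FC and ST, 1.5-fold in HT). None of the points is called, and the intervals of Slc5a7 and Slc18a3 are the widest.

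The third question was whether the diet difference itself differed between regions, tested by the interaction in limma at an adjusted p value below 0.05. Between ST and FC 1 of 9 member rows was called, against 30.1% of all rows. It was the Chrm1 row NM_007698, whose diet difference was 0.75 higher in ST than in FC (SE 0.23, 95% interval 0.28 to 1.22, adjusted p = 0.0167). The diet difference itself was 0.58 in ST and -0.17 in FC. Each fit that left out 1 array called it (0.68 to 0.81), but it was 0.66 (adjusted p = 0.137) without the 3 striatal arrays that stood apart, 0.6 (0.0577) without array weights and 0.98 (adjusted p = 1) with slide as a block. Between HT and FC 0 of 9 were called, against 20% of all rows, with 3 at an unadjusted p value below 0.05 against 34% of all rows (Chrm1 NM_001112697 -0.67, adjusted p = 0.124, Chrm2 0.71, 0.129, and Chrm4 -0.46, 0.0523). Between HT and ST 0 of 9 members were called and 0% of all rows, with 1 member at an unadjusted p value below 0.05 against 14.8% of all rows (Chrm1 NM_007698, limma adjusted p = 0.111). That row was not well above background on any HT array, so no size is given. Chat had an interaction of -1.05 there, with an interval from -2.16 to 0.05.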

How the data were processed

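RNA was hybridized in 1 color to Agilent mouse 60-base arrays, and spots were read with Feature Extraction 10.7.3.1 (annotation mm9). The deposited scanner files hold spot intensity values, and the deposited table holds log2 values in which the authors corrected background with normexp (offset 0) on the median signal, quantile-normalized, kept probes 1.1 times brighter than the 95th percentile of negative control spots on 4 or more arrays, and averaged probes by identifier. Rebuilding that log2 table from the intensities gave 31395 rows with a largest difference of 5e-09. Tests used limma 3.58.1 and statmod 1.5.0 in R 4.3.3 over all rows: 6 group means, array weights, mouse as a random block (correlation -0.0398) and Benjamini-Hochberg adjustment. Calls needed 2-fold and an adjusted p value below 0.01, 1.5-fold and 0.05 for diet in HT, and 0.05 for interactions. Array weights were 0.222 to 1.74 for SC and 0.897 to 2.74 for CM arrays, so fitted differences can depart from differences of plain means. The scripts were tested on simulated data. The members and lists were chosen with earlier results of these data known. Other genes were named by the 3 highest correlations with each member, and by the lists, and some of them are not reported here. Alternatives changed the background, scaling, filter, summarizing, weights, blocks, slide and threshold, or left out arrays. One, leaving out 3 striatal arrays, was chosen after seeing the data. Promoter windows came from RefSeq. The number of arrays limits the precision. Replicates are separate mice.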

Additional observations from a re-analysis of the deposited data

Results flagged for a closer look

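In the Chrm4 row, SC FC L56 read 6.24 on the log2 scale while the other 3 SC FC arrays read 6.45 to 6.49. Its gap to the nearest array was 0.854 of the range of the group, above Dixon's critical share for 4 arrays. It was 1 of 45 groups of 4 arrays examined, and chance alone gives about 5 in 100 such groups.

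The Chrm1 row NM_007698 was flagged for its interaction. Its diet difference was 0.75 higher in ST than in FC (limma interaction test, adjusted p = 0.0167). Such a call was common, as the same test called 30.1% of all rows and 1 of 9 member rows. The call was lost with slide as a block, without array weights and without the striatal arrays that stood apart. The second Chrm1 row had an ST diet difference of 0.01.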

How the results depend on the processing

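Over 18 other settings 1849 values kept their side of the threshold, 33 came to pass it, 59 no longer passed it and 0 called values reversed, and over the 23 single arrays left out these were 2424, 21, 39 and 0. Calls of Chrm1 in HT, of Ache in HT against FC and of Chrm4 in HT against ST held without each array. For ST against FC of SC mice 2 members were called, and this count was 1 with the 3 striatal arrays left out (chosen after seeing the data), with a background offset of 50, with no filter, with array-median scaling and with slide as a random block, 8 with the looser threshold, and 0 with the compared arrays alone. HT against FC of SC mice gave 2 in place of 5 with slide as a fixed block, and HT against ST of SC mice 5 in place of 3 with the looser threshold. In CM mice slide as a fixed block gave 0 in place of 6 (ST against FC) and 3 in place of 8 (HT against FC, 5 without array weights). Diet in FC gave 1 with the looser threshold. For interactions, ST against FC gave 0 in place of 1 with 1 value per gene name, without array weights, without the 3 arrays and with slide as a fixed or random block. HT against FC gave 1 in place of 0 with a filter by the scanner's background flag, the looser threshold, the processed signal and array-median scaling, and HT against ST 1 with the offset of 50. Without single arrays, counts ran from 0 (without SC FC L56, SC ST L52 or SC ST L56) to 5 (without SC ST L54) for ST against FC of SC mice, 4 to 5 (HT against FC, SC), 3 to 4 (HT against ST, SC), 5 to 6, 5 to 8 (5 without CM FC O54) and 6 to 8 in CM mice, 0 for diet, and 1 to 2 (2 without SC ST L56), 0 to 1 (1 without CM FC O54, CM HT O54 or O58, CM ST O52, SC FC L58 or SC HT L52) and 0 to 1 (1 without SC ST L54) for interactions. The cause of these shifts was not tested.

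Mice were paired by design across regions. Same-mouse deviations correlated from -0.486 to 0.131 over 22 pairs (3 above 0.1), and those of same-numbered L and O mice from -0.321 to 0.136 over 11. With mouse as a fixed replicate block, ST against FC of SC mice gave 0 calls and the HT against FC interaction 2 (Chrm2 and Chrm4); this block gives no diet difference. The shared number as replicate block gave 1 for that interaction, as did no replicate block. No other count of calls moved past 1.5 times under these blocks.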
